A study of Monopterus albus with 3 samples.

Results

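The loci described here are 856 protein-coding loci of the swamp eel *Monopterus albus* that lie in 12 gene-dense ridges, stretches of 1.4 to 2.5 Mb on 12 scaffolds in which coding loci are packed closer than elsewhere. A locus is 1 gene identifier of the deposited transcript annotation. Where it had several transcripts, the one with the longest coding sequence (CDS) stood for it, and a locus was kept if that CDS reached 300 bp. The ridges were chosen by the number of such loci in windows of 1 Mb, shifted by 100 kb each time, and a ridge needed 5 or more windows in a row that each reached 40 loci. A locus was a member when it started inside a ridge. The paper gives ridges at the same cutoffs for its own gene set on assembled chromosomes. The 12 ridges here were not matched to those. Whether other stretches of the annotation meet the rule is not reported here. The 856 members stand beside 730 loci of the same kind on the rest of the same 12 scaffolds, and both were drawn from 18355 such loci and 63334 loci of any CDS length in the whole annotation.

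Gonads of the fish were sequenced as 3 poly(A) RNA libraries, 1 each from ovary (female), ovotestis (intersex) and testis (male), with no replicates and no treatment. The labels give no strain, age or number of animals. The annotation is 1 set of transcript models for the series and names no library. It has 1 coverage value and 1 FPKM value per transcript, so nothing below compares the gonads and no value has a replicate error. The sources used here do not say whether reads of the 3 gonads were pooled for it. Nor do they say whether coverage was computed before or after exons were cut back to their coding part. The intervals given are exact 95% intervals over loci, introns or pairs of neighbours, and they cover the spread between loci or the counting error only. Inside and outside are also compared scaffold by scaffold on the 9 scaffolds with at least 10 loci outside the ridge. On the other 3, scaffolds 48, 75 and 84, the ridge takes up nearly the whole annotated length and leaves 4, 3 and 1 loci.

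The swamp eel begins life as a female and later turns into a male by way of an intersex gonad, the ovotestis. Genes are not spaced evenly along vertebrate genomes. In the human genome, gene-rich stretches are known for short introns and for many widely and highly expressed genes, and gene-poor stretches for long introns and wide intergenic space. Introns are removed from the transcript at splice sites, and a cut at different sites gives several transcripts from 1 locus. The gene identifiers are assembly numbers without names, and 0 of the 856 members could be matched to a RefSeq gene. Members are therefore named by scaffold and position, 1-based on the authors' scaffolds, and neither their functions nor markers of ovary or testis could be looked up. No sequence is printed, since the scaffold sequences were not used here.

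Density is what chose the members, and its values are a description only. The ridges held 42.2 loci per Mb (95% interval 39.4 to 45.1) over 20.3 Mb, and the rest of the scaffolds held 23.7 per Mb (22.0 to 25.5) over 30.8 Mb, measured to the last annotated base. The 12 ridges ran from 35.0 loci per Mb on scaffold 99 to 50 on scaffold 84. Windows inside them held 39 to 64 loci, the 39 lying between joined stretches on scaffold 7, and the nearest windows outside held 34 to 39. The packing was uneven. Of 203 bins of 100 kb, 8 held no member, 49 held 2 or fewer and 16 held 8 or more, with a median of 4.

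The outermost 250 kb of the ridges held 27.8 loci per Mb (23.3 to 33.0), against 22.8 (18.3 to 27.9) in the 250 kb just outside. From 250 to 500 kb inside the ends the density was 45.3 per Mb (39.4 to 51.7). These values follow from the way the ridges were chosen, since a run of windows of 1 Mb takes in sparser flanks. Introns had a median of 210 bp between 500 and 750 kb inside the ends and 306 bp in the outermost 250 kb, against 402.5 bp in the first 250 kb outside and 520 bp between 500 and 750 kb outside. In the shortest ridges a locus near the middle counts from both ends.

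**Figure D1:**
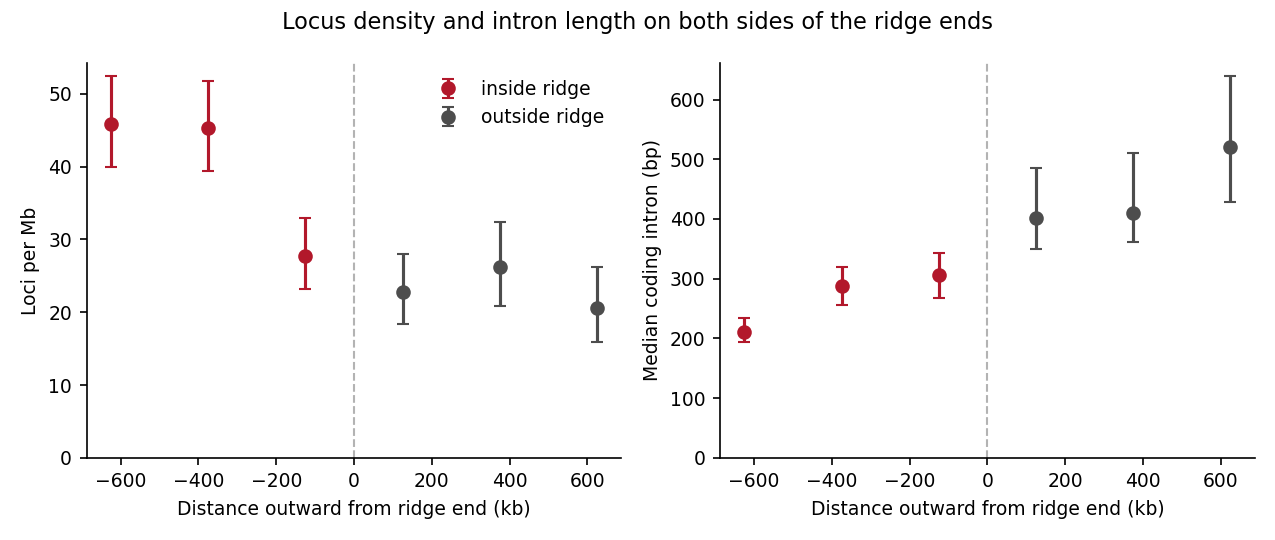
Loci per Mb (left) and median coding intron length in bp (right) in steps of 250 kb across the ridge ends that lie inside a scaffold, against distance outward from the end in kb, with points inside ridges in red at negative distances, points outside in grey and exact 95% intervals as bars. The density falls to 27.8 loci per Mb in the outermost 250 kb inside the ends, and the median intron is longer at each step outward, between 210 bp and 520 bp. Not every step is resolved, since the intron intervals overlap between 287.5 bp and 306 bp inside and between neighbouring steps outside. Steps inside draw on 19 stretches and steps outside on 13 to 16.

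Introns of ridge members were short. Their 6509 coding introns, those between coding segments, had a median length of 235 bp (224 to 249), against 386 bp (364 to 404) for 4829 introns in the rest and 363 bp over the whole annotation. The means were 724 bp in ridges and 1428 bp in the rest. The ridge median was lower on 7 of 9 scaffolds, and the difference, ridge minus rest, averaged -219 ± 348 bp (SD over the 9 scaffolds). This mean rests most on scaffold 127, with 190 bp in the ridge and 1290 bp in the rest. Introns of a locus are not independent, and density leaves less room for long introns, so intron length is tied to the measure that chose the ridges.

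The difference lay at both ends of the distribution. Introns under 100 bp made up 17.5% of ridge introns (16.5 to 18.4) and 10.2% of the rest (9.37 to 11.1). Introns of 1 kb or more made up 16.4% in ridges (15.5 to 17.3) and 26.7% in the rest (25.4 to 27.9), and those of 10 kb or more 0.676% in ridges and 2.40% in the rest. The middle class, 200 bp to under 1 kb, was much the same, with 37.7% in ridges and 39.0% in the rest. An intron of 10 kb or more was present in 37 of 707 spliced members, 5.23% (3.71 to 7.14), and in 80 of 550 spliced loci of the rest, 14.5% (11.7 to 17.8). A whole locus built of introns under 200 bp was as rare in ridges, 33 of 707, as in the rest, 25 of 550. Short introns in the ridges were therefore mixed with longer ones in the same locus.

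**Figure D2:**
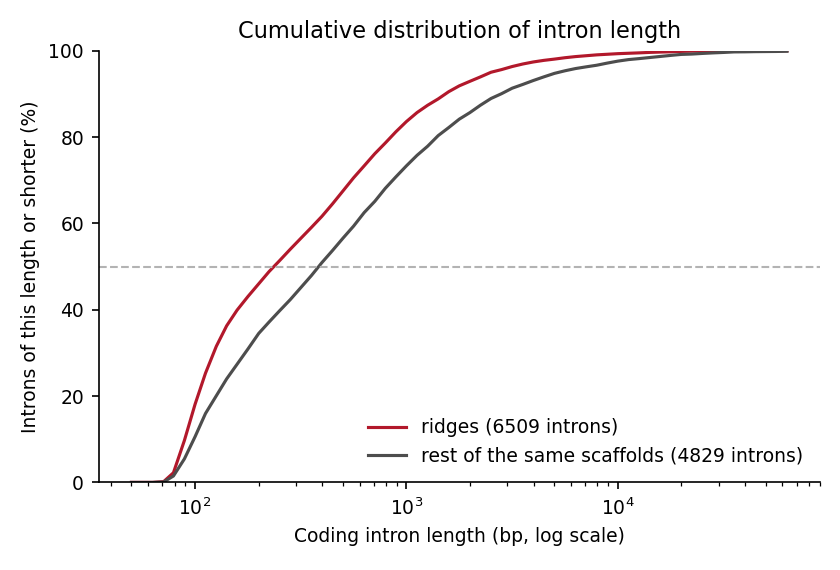
Cumulative share of coding introns (%) against intron length (bp, log scale) for ridges in red and the rest of the same scaffolds in grey, with a dashed line at 50%. The ridge curve lies to the left, with 45.9% of introns under 200 bp in ridges and 34.4% in the rest.

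The same order of medians held within each class of loci that was examined. First coding introns, which are the longest in many genes, had a median of 528 bp in ridges and 785 bp in the rest, and later introns 214 bp in ridges and 358 bp in the rest. In loci with 2 to 5 coding exons the medians were 440 bp in ridges (360 to 523) and 587 bp in the rest (491 to 723). In loci with 13 or more they were 202 bp in ridges (191 to 212) and 326.5 bp in the rest (306 to 358). Below the median coverage of the annotation they were 253 bp in ridges and 484 bp in the rest, and above it 230 bp in ridges and 357 bp in the rest. Intron phase, the place within a codon where an intron falls, was alike. Phase 0 held 47.7% of introns in ridges (46.5 to 48.9) and 49.2% in the rest (47.8 to 50.6).

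The ridges differed from each other more than the pooled medians show. The shortest median was 143 bp on scaffold 23, where the rest had 225 bp. Scaffold 105 had 162 bp in its ridge and 374 bp in the rest, scaffold 6 had 179 bp in its ridge and 321 bp in the rest, and scaffold 7 had 207 bp in its ridge and 471 bp in the rest. The widest difference was on scaffold 127, with 190 bp in the ridge and 1290 bp over only 180 introns in the rest. On scaffold 26 the medians were close, 457 bp in the ridge and 471 bp in the rest. On 2 of the 9 scaffolds the ridge median was the higher one, with 375 bp in the ridge and 350 bp in the rest of scaffold 2, and 342 bp in the ridge and 313 bp in the rest of scaffold 99. Scaffold 75, which has 3 loci outside its ridge, had a ridge median of 432.5 bp, the second highest of the 12.

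Within the ridges, intron length also varied with the number of neighbours. That number is a local density, and longer introns leave room for fewer starts, so the values are a description only. The classes pool ridges whose median introns ran from 143 bp on scaffold 23 to 457 bp on scaffold 26. Neighbours are counted only up to the scaffold end. The 252 members with 24 to 38 other loci within 250 kb of their start had a median intron of 182 bp (168 to 202). The 260 members with 20 to 23 such neighbours had 239 bp (214 to 263), and the 344 with 7 to 19 had 281 bp (260 to 305).

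The coding exons themselves were alike. Their median length was 123 bp in ridges (120 to 124) and 125 bp in the rest (123 to 127). Members had a median of 6 coding exons (6 to 7), against 5 in the rest (4 to 6), and a CDS of 1031 bp (957 to 1089), against 917 bp (855 to 987). These differences went with a smaller share of single-segment loci, 149 of 856 members or 17.4% (14.9 to 20.1), against 180 of 730 loci or 24.7% in the rest (21.6 to 28.0). Among spliced loci, both groups had a median of 8 coding exons, and the CDS was 1197 bp in ridges (1098 to 1311) and 1124 bp in the rest (1053 to 1215). Untranslated exons had been trimmed away by the authors, so a single coding segment need not mean an unspliced transcript.

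Introns took up a median of 3864 bp of a spliced member (3549 to 4320), against 5240 bp in the rest (4671 to 6165). The span from first to last coding base was 5296 bp in spliced members and 6865 bp in spliced loci of the rest, while over all loci, with the single-segment ones, it was 4219 bp in ridges and 4194 bp in the rest. Loci of 50 kb or more were rare in ridges, 4 of 856 (0.467%, 0.127 to 1.19), against 27 of 730 in the rest (3.7%, 2.45 to 5.34). Per base of scaffold, coding segments covered 5.82% of the ridges and 3.05% of the rest, whereas introns covered 23.1% of the ridges and 22.3% of the rest. Over the pooled scaffolds, with more loci and less intron each in ridges, the share of intron sequence was thus nearly equal. Single scaffolds differed in both directions. Introns covered 18.8% of the ridge and 33.3% of the rest on scaffold 20, and 32.8% of the ridge and 21.4% of the rest on scaffold 2.

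Some members held many coding exons between short introns. The locus with the most coding exons lay on scaffold 6 at 2036143-2113004 on the plus strand, with 65 exons, a CDS of 10560 bp, a median intron of 193.5 bp and 1 intron of 14423 bp. The second, on scaffold 127 at 2490998-2517291 on the minus strand, had 56 exons and a CDS of 8865 bp within 26.3 kb, and its longest intron was 1554 bp. A locus of 45 exons on scaffold 7 at 1763781-1787072 fitted a CDS of 8217 bp into 23.3 kb, and another on the same scaffold at 579878-592875 fitted 40 exons into 13 kb with a median intron of 125 bp.

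Other members were long because of a few introns. The longest span was on scaffold 48 at 1347463-1470281, 122.8 kb for a CDS of 5991 bp in 19 exons, with a longest intron of 35148 bp. The next, on scaffold 2 at 6376879-6487412, spread a CDS of 1089 bp over 110.5 kb and held the longest intron of the ridges, 60042 bp. A CDS of 2241 bp spread over 67.4 kb on the same scaffold at 6916264-6983661, with an intron of 26630 bp, and one of 2994 bp over 48.7 kb on scaffold 75 at 1000717-1049385. Introns of 34132 bp on scaffold 7, at 1703481-1743102, and 29342 bp on scaffold 105, at 2505291-2550525, were also among the 5 longest. In each ridge the member with the longest CDS had at least 3039 bp, the value on scaffold 75, and the exon number of these 12 members ran between 8 on scaffold 20 and 65 on scaffold 6. The scaffold 20 locus, at 3631526-3647910, had its 6480 bp in 8 segments.

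Gaps between neighbours were short, as the choice by density requires, and are given as a description. The median distance from the last coding base of a locus to the first of the next was 8541 bp in ridges (7586 to 9872, 844 pairs) and 13329 bp in the rest (10640 to 15260, 711 pairs), and it was lower on 9 of 9 scaffolds. These distances include untranslated exons. Neighbours are loci in order of start, so after a locus nested in a longer one the gap is measured from the nested locus. On scaffold 6, the stretch between 2050747 and 2105125 counts as a gap although it lies inside the locus at 2036143-2113004. How far such cases change the values was not tested. The mean distance between the starts of neighbours was 22.8 kb in ridges and 41.7 kb in the rest. Of the difference, 78.7% lay in the gaps and 21.7% in introns, while coding segments were 72.6 bp longer in ridges. Gaps of 50 kb or more made up 7.82% of ridge pairs (6.10 to 9.84) and 18.7% of the rest (15.9 to 21.8). Gaps under 5 kb made up 33.9% in ridges (30.7 to 37.2) and 28.0% in the rest (24.7 to 31.4). When the next locus of any CDS length was taken instead, the median gap was 3264 bp in ridges and 3162 bp in the rest, so the difference is one between longer coding loci.

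**Figure D3:**
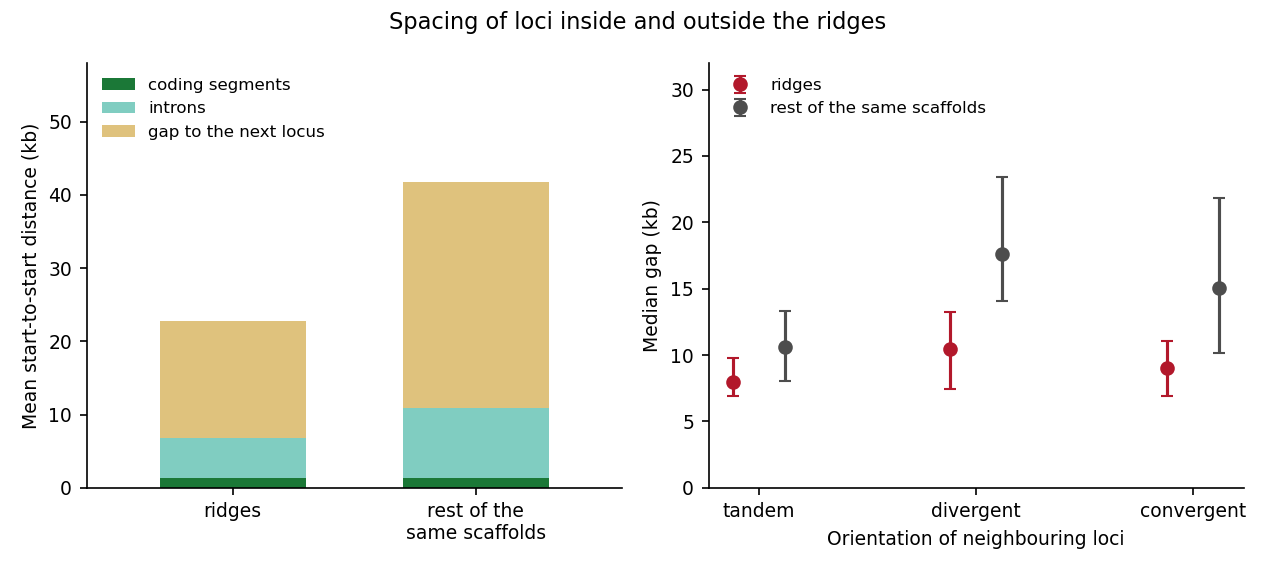
Left, mean distance between starts of neighbouring loci (kb) in ridges and the rest of the same scaffolds, split into coding segments, introns and the gap to the next locus. Right, median gap (kb) by orientation in ridges (red) and the rest (grey) with exact 95% intervals, where the tandem medians are 7960 bp in ridges and 10609 bp in the rest.

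Divergent neighbours, whose 5′ ends face each other, were 10446 bp apart at the median in ridges (7471 to 13230) and 17628 bp in the rest (14094 to 23404). Convergent neighbours were 9032 bp apart in ridges (6890 to 11028) and 15066 bp in the rest (10130 to 21796). The closest divergent pair of spliced members was on scaffold 75, with 324 bp between a locus ending at 832606 and one starting at 832931. Their coverages were 784 and 161. The next closest, with 360 bp on scaffold 48, had coverages of 15.5 and 14.1. The third, with 554 bp on scaffold 99, joined a locus of coverage 378 to the member with the highest coverage, 23955. The closest convergent pair had 274 bp between 1564472 and 1564747 on scaffold 26, with coverages of 132 and 191. Convergent gaps of 309 bp on scaffold 7 and 589 bp on scaffold 2 came next.

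The ridges also held wide openings. The widest gap was 177225 bp on scaffold 2, after a locus ending at 5662883, followed by 155237 bp on scaffold 105 and 143472 bp on scaffold 23. The loci on either side of the scaffold 2 gap had coverages of 237 and 182. These 3 gaps were longer than any whole member.

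Of the 844 pairs in ridges, 26 overlapped (3.08%, 2.02 to 4.48), against 29 of 711 in the rest (4.08%, 2.75 to 5.81). Only neighbours in order of start were compared, so overlaps with a locus further back are not in these counts. In 21 of the 26 ridge pairs both loci were on the same strand, and in 14 of these the coding segments themselves overlapped. Such pairs may be pieces of 1 gene with 2 identifiers, and merging them left 842 of the 856 members. The reverse also occurred. In 17 of 856 members (1.99%, 1.16 to 3.16) and in 8 of 730 loci of the rest (1.1%, 0.474 to 2.15), another transcript of the same identifier held an open reading frame (ORF) of at least 300 bp in a separate stretch. Whether these are separate genes was not tested.

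Strand order was nearly the same in ridges and rest. Neighbours were on the same strand in 492 of 844 ridge pairs, 58.3% (54.9 to 61.6), and in 413 of 711 pairs of the rest, 58.1% (54.4 to 61.7), beside 58.1% in the whole annotation. The ridge share was higher on 5 of 9 scaffolds and lower on 4, and the difference averaged 2.23 ± 9.94 percentage points (SD over the 9 scaffolds). With only spliced loci kept, the order turned, with 56.1% in ridges and 59.5% in the rest. The libraries did not mark strand. The strand of a spliced locus follows from its splice sites, and that of a single-segment locus from its ORF alone. Close neighbours shared a strand more often in both groups, with 62.2% of ridge pairs under 5 kb apart (56.3 to 67.9) and 64.3% of such pairs in the rest (57.2 to 71.0). Members lay on the plus strand in 413 of 856 cases.

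Runs of neighbours on 1 strand were 364 in number in ridges, with a mean length of 2.35 ± 1.80 loci (SD), against 317 in the rest with 2.3 ± 1.96. Runs of at least 5 loci numbered 46 in ridges and held 282 members, against 38 runs with 251 loci in the rest. The longest ridge runs had 10 loci, and the longest of the rest had 12. There were 3 runs of 10, all on the minus strand. Runs count identifiers, so a gene listed in pieces would lengthen them, and this was not tested.

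The run on scaffold 7, at 512369-630400, was the tightest, with all 10 loci spliced, gaps of 1313 to 27465 bp and a median gap of 3517 bp. Its CDS lengths were 381 to 5460 bp. Coverage within it ran between 2.6 and 203 with a median of 11.1, so the loci of this run had very different levels. It crossed the densest bin of 100 kb, which began at 500001 and held 12 loci. The run on scaffold 48, at 1014181-1179872, had coverages of 3.46 to 249 with a median of 21.7. The run on scaffold 75, at 676824-832606, held 3 single-segment loci and coverages of 4.50 to 784.

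Neighbours that share at least 3 consecutive internal exon lengths were looked for as candidates for tandem copies. They were few, 4 pairs with 7 of 856 members in ridges (0.818%) and 1 pair with 2 of 730 loci in the rest (0.274%). The share over the whole annotation was not computed. On scaffold 23, a locus of 22 exons at 3201769-3215041 shared lengths of 185, 162, 141 and 82 bp with the next locus, 1409 bp away, and lengths of 139, 135 and 121 bp with the one at 3219062-3222762. On scaffold 7, the locus at 568156-572746 in the run of 10 shared 155, 90 and 151 bp with the locus of 40 exons at 579878-592875, while their coverages were 5.55 and 181. On scaffold 105, 2 loci starting at 2050840 and 2058402 shared 54, 108 and 54 bp. The 3 clusters in ridges lay on 1 strand each, and the loci of the pair in the rest were on opposite strands. Equal lengths can arise without a common origin, and the sequences were not compared. Whether a pair is 1 gene split between identifiers was not tested.

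More members had several assembled transcripts. At least 2 transcripts with an ORF were present in 368 of 856 members, 43.0% (39.6 to 46.4), and in 255 of 730 loci of the rest, 34.9% (31.5 to 38.5), beside 37.1% in the whole annotation. The mean number per locus was 1.58 ± 0.770 in ridges and 1.48 ± 0.741 in the rest (SD over loci), and it was higher in the ridge on 7 of 9 scaffolds, by 0.0963 ± 0.155 (SD over the 9 scaffolds). Against all other scaffolds of at least 1 Mb, where 39.6% of loci had several transcripts, the difference was 3.44 percentage points in place of 8.06.

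The number of transcripts was tied to coverage and to splicing. Coverage here is summed over the transcripts of a locus, so each further transcript adds to the value that sets the class. Part of the rise between classes is therefore built in. The class limits were the same on all scaffolds, although the ratio of coverage to FPKM differed between scaffolds. Whether the loci of a class had like depth on every scaffold was not tested. With all loci of the annotation split by coverage into 4 classes of equal size, the lowest class had several transcripts in 10.1% of members (6.39 to 15.1) and 9.90% of loci in the rest (6.15 to 14.9), beside 8.46% of the whole annotation. In the second class the shares were 46.5% in ridges (39.1 to 54.0) and 29.4% in the rest (22.8 to 36.7), beside 33.7% of the whole annotation. In the third they were 53.3% in ridges (46.8 to 59.8) and 48.1% in the rest (40.1 to 56.2), beside 49.0%. In the highest class they were 59.4% in ridges (52.6 to 65.9) and 55.4% in the rest (48.1 to 62.6), beside 57.1%. The second class was the only one in which the intervals did not overlap. Among spliced loci of that class the shares were 56.0% in ridges (47.4 to 64.4) and 41.2% in the rest (32.2 to 50.6), beside 52.4% of the whole annotation (50.5 to 54.3), so that the ridges were near the annotation and the rest was below it. Over all spliced loci the mean number of transcripts was 1.68 in ridges and 1.6 in the rest, beside 1.68 in the whole annotation.

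**Figure D4:**
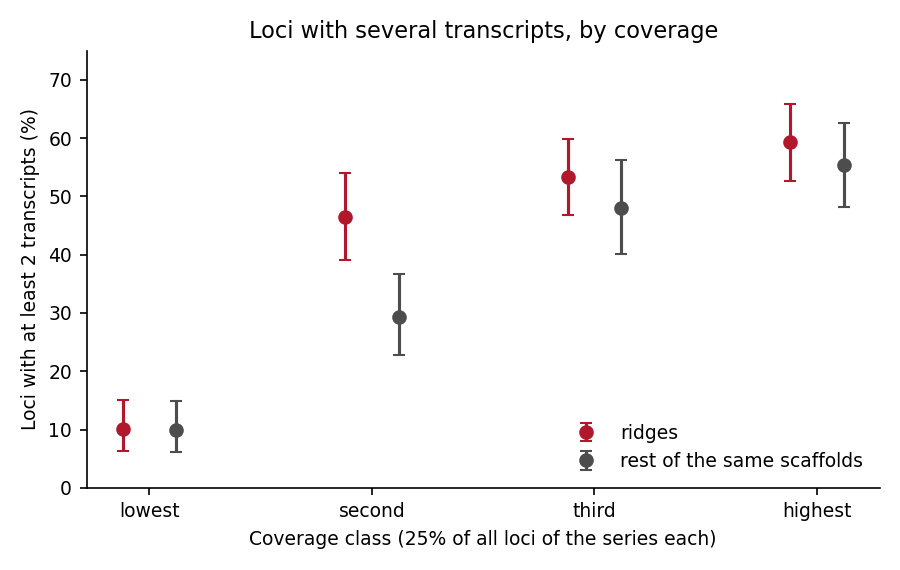
Share of loci with at least 2 transcripts (%) by coverage class, the classes holding 25% each of the 18355 loci of the annotation, for ridges in red and the rest of the same scaffolds in grey with exact 95% intervals. The shares are 46.5% in ridges and 29.4% in the rest in the second class and lie closer together in the other classes.

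The kinds of transcript were alike. Of loci with several, the transcripts differed in introns within their shared span in 166 of 368 members, 45.1% (39.9 to 50.4), and in 119 of 255 loci of the rest, 46.7% (40.4 to 53.0). A coding exon was skipped in 9.51% of them in ridges (6.71 to 13) and 10.6% in the rest (7.09 to 15.0). In 25.8% in ridges (21.4 to 30.6) and 25.5% in the rest (20.3 to 31.3), an ORF lay in a stretch that the longest one did not share. Transcripts with the same coding segments, which differ only outside the ORF, were in 15.5% of them in ridges (11.9 to 19.6) and 10.2% in the rest (6.77 to 14.6). The most transcripts of a member were 5, in loci on scaffold 7 at 267605-272275, scaffold 105 at 1376637-1396924 and scaffold 20 at 3150559-3154060. Their coverages were 545, 18.6 and 44.3.

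Coverage, the read depth that Cufflinks estimates over a transcript, was summed over the transcripts of a locus. The ratio of coverage to FPKM differed between scaffolds, and which of them departs from a common scale was not tested, so the comparison within each scaffold is the safer one. The pooled median was 90.9 in ridges (63.3 to 116) and 52.6 in the rest (39.1 to 72.3), beside 60.2 in the whole annotation. It was higher in the ridge on 7 of 9 scaffolds and lower on scaffolds 7 and 105. The widest differences were on scaffold 23, with 172 in the ridge and 50.3 in the rest, scaffold 6, with 105 in the ridge and 37.8 in the rest, and scaffold 20, with 147 in the ridge and 52.3 in the rest.

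The makeup of the loci differed as well, and its part in the coverage difference was not tested. The values that follow pool all scaffolds. Single-segment loci had low coverage in both groups, 9.86 in ridges (8.22 to 15.4) and 10.9 in the rest (9.45 to 16.1), and they were fewer in ridges. Among spliced loci the medians were 136 in ridges (115 to 157) and 116 in the rest (88.7 to 148), with 140 in the whole annotation. For the longest-CDS transcript alone they were 46.8 in ridges (37.2 to 62.3) and 38.2 in the rest (28.9 to 48.8). Against all other scaffolds of at least 1 Mb, the rest had a median of 68.6 in place of 52.6. The means were nearly equal, 285 in ridges and 282 in the rest, and loci above the 90th percentile of the annotation made up 10.3% in ridges (8.33 to 12.5) and 10.8% in the rest (8.66 to 13.3). Loci above the median of the annotation made up 54.2% in ridges (50.8 to 57.6) and 48.1% in the rest (44.4 to 51.8). The shift of the median was thus not seen at the top of the range. A locus enters the annotation only if it was assembled from these reads, so silent genes count in neither group.

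**Figure D5:**
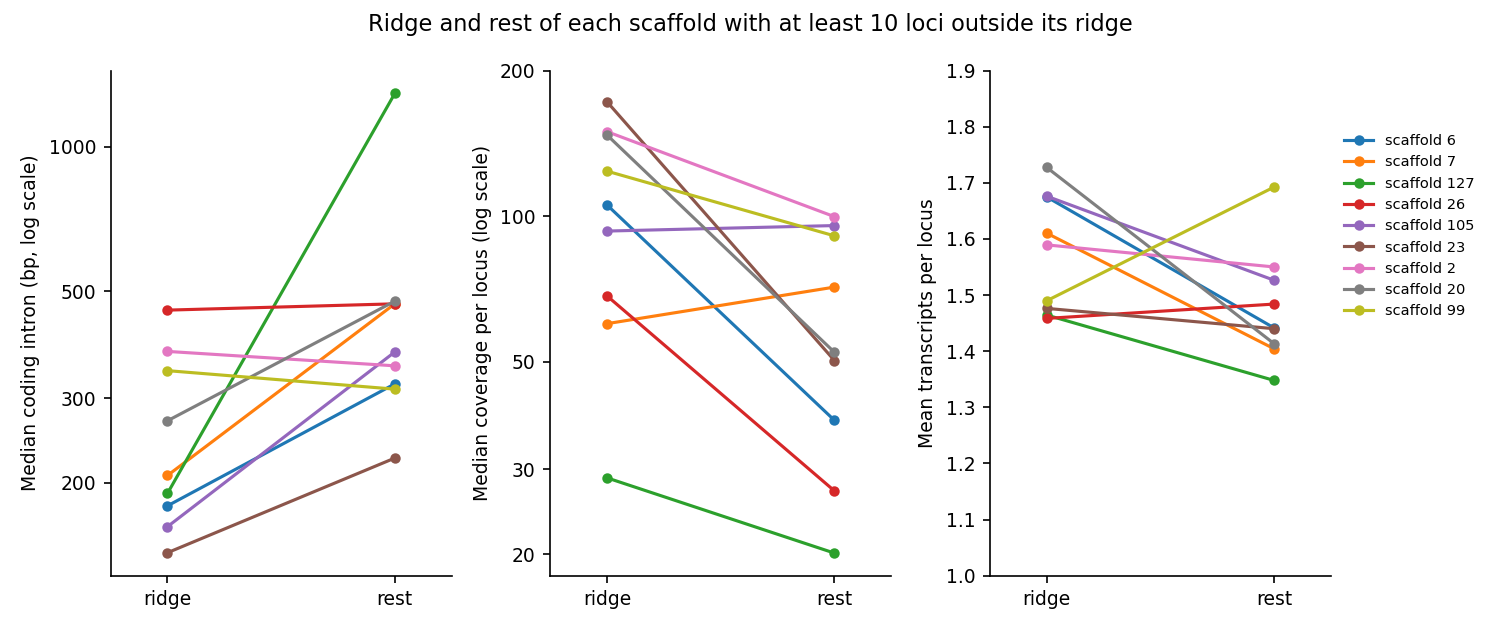
Median coding intron length (bp, log scale), median coverage per locus (log scale) and mean number of transcripts per locus in the ridge (left) and the rest (right) of the 9 scaffolds with at least 10 loci outside the ridge, 1 line per scaffold. Intron medians are lower in 7 ridges, and coverage medians and mean transcript numbers are higher in 7 ridges each.

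A few members held much of the coverage. The 10 highest held 26.2% of the summed coverage in ridges, and 27.0% in the rest. The highest was a locus of 486 bp in 6 exons on scaffold 99 at 3144539-3148558, with 23955. The next were at 6744 and 6696 on scaffold 26, at 1047344-1050002 and 1595901-1602213, and at 5080 and 4198 on scaffold 6, at 1712195-1716602 and 3299176-3301302. The longest CDS of all 5 was short, between 486 and 678 bp, in 4 to 9 exons. No longest-CDS transcript of a member had a coverage above 3456. Part of each of these 5 sums therefore came from other transcripts of the same identifier, whose structure is not given here. The 3 lowest had 1.80, 1.82 and 1.83. The first and second of these both started at 2398706 on scaffold 6 and overlapped, so they may be the same gene listed under separate identifiers.

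Levels of neighbours were weakly related in both groups, and this is given as a description over pairs that share libraries and scaffolds. Spearman's rho between the coverages of neighbours was 0.18 over 844 ridge pairs and 0.20 over 711 pairs of the rest. It was 0.31 in ridges and 0.28 in the rest for tandem pairs, 0.03 in ridges and 0.06 in the rest for divergent pairs, and -0.06 in ridges and 0.07 in the rest for convergent pairs. For pairs under 5 kb apart it was 0.34 in ridges and 0.38 in the rest. Fragments of 1 gene listed as neighbours would also give like values, and their part was not tested.

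Loci with a short ORF, under 300 bp, were not used to choose the ridges. They numbered 1124 in ridges, 55.4 per Mb (52.2 to 58.7), and 1520 in the rest, 49.4 per Mb (46.9 to 51.9), with a higher density in the ridge on 6 of 9 scaffolds. Nearly all had 1 coding segment. The few spliced ones lay at 2.81 per Mb in ridges (2.13 to 3.64) and 1.66 per Mb in the rest (1.23 to 2.18). Their median coverage was 22.5 in ridges (18.2 to 26.9) and 21.2 in the rest (18.7 to 24.4). Of the short loci, 44.2% in ridges (41.3 to 47.2) and 31.6% in the rest (29.2 to 34.0) lay outside a longer locus but within 5 kb of it. How much of each scaffold lies within 5 kb of a longer locus was not compared. Inside introns of longer loci lay 8.72% in ridges (7.13 to 10.5) and 9.80% in the rest (8.35 to 11.4).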

How the data were processed

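RNA of 1 ovary, 1 ovotestis and 1 testis library was sequenced by the authors. Per the labels, TopHat 1.3.3, Bowtie 0.12.7 and Cufflinks 1.1.0 were used. The authors assembled transcripts on their own scaffolds, chose an ORF for each and cut the exons back to that ORF. The deposited annotation holds 75480 transcripts on 8752 scaffolds, with coordinates, coverage and FPKM per transcript. It has no columns per library. The number of reads in each library is not given in the sources used here. Depth could be judged from coverage alone.

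From this annotation, coding segments, introns, gaps, strand runs, transcripts and coverage were computed per locus with Python 3.11.15, numpy 2.4.6, scipy 1.17.1 and matplotlib 3.10.9. Intron length, gap and same-strand share were first recovered from a simulated annotation with known values. Overlaps, base shares, kinds of transcript and shared exon lengths were not compared there. The members, the intervals and the quantities were chosen with earlier results of these data known. Introns and CDS are those of the longest-CDS transcript. Coverage was used, with FPKM as an alternative. The ratio of coverage to FPKM had medians of 0.0943 to 0.449 on the 12 scaffolds, so at least one of them is not on a common scale. Medians have exact order-statistic intervals, shares Clopper-Pearson intervals and densities exact Poisson intervals, all at 95%. No test was run, since there are no replicates and the ridges were chosen on density. The loci named are the longest CDS of each ridge, the 5 longest spans, exon numbers, introns, highest coverages and transcript numbers, the 3 lowest coverages, longest runs, closest divergent and convergent spliced pairs and widest gaps (1 a ridge), and neighbours with shared exon lengths. The profile across ridge ends, the neighbours within 250 kb and the second ORFs were added after the data were seen. Untranslated exons and gonad differences were not analysed here.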

Additional observations from a re-analysis of the deposited data

How the results depend on the processing

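The 9 quantities were recomputed under 28 other settings, giving 172 values. Of these, 145 kept the order of ridge and rest and stayed within the 95% interval of the ridge value, 19 left that interval and 8 turned the order. Leaving out 1 scaffold at a time gave 101 of the 145, and those values share most of their loci with the main ones. Both intron measures cannot change when only spliced loci are kept. The count of 145 is therefore no measure of independent agreement. Nor is the count of 19 a measure of sensitivity. It includes means held against intervals of medians, FPKM held against a coverage interval, and CDS length after a higher CDS minimum. With only spliced loci, the ridge values were 8 coding exons (equal to the rest), a CDS of 1197 bp, a gap of 10610 bp, 50.2% of loci with several transcripts, a coverage of 136 and a same-strand share of 56.1%, below the 59.5% of the rest. With a CDS of at least 600 bp they were 4617 bp of intron per locus, 9 coding exons, a CDS of 1383 bp, a gap of 12470 bp, 50.6% with several transcripts, a coverage of 136 and a same-strand share of 56.2%, below the 59.2% of the rest. Means in place of medians gave introns of 724 bp, a CDS of 1387 bp and 8.60 coding exons. The gap to the next locus of any CDS length was 3264 bp, above the 3162 bp of the rest. Coverage was 46.8 for the longest-CDS transcript, and its FPKM was 243, beside 150 in the rest. These FPKM medians pool scaffolds whose ratio of coverage to FPKM ran from 0.0943 on scaffold 75 to 0.449 on scaffold 2. Scaffold 75 had 67 ridge loci and 3 in the rest, and scaffold 2 had 56 and 160, so the scales are mixed unequally. Whether the order of FPKM holds within scaffolds was not tested. Of loci of middle coverage, 50.4% had several transcripts. Leaving out 1 scaffold at a time gave introns of 222 to 253 bp, lowest without scaffold 26 and highest without scaffold 23, and same-strand shares of 57.5% to 59.0%, the order of ridge and rest being kept in 7 of 12 cases. The other 7 quantities kept their order in 12 of 12 cases. The causes of these changes were not tested.

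Depth limits all of this. With 1 coverage value for the series and none per gonad, a gene expressed in a single gonad cannot be told from one expressed weakly in all of them. The 25% of loci with the lowest values lay under a coverage of 11.0, where few had a second transcript. The ridges of scaffolds 48, 75 and 84 leave too few loci outside them for a comparison, and the rest of scaffold 127 holds 46 loci. No paired analysis was possible because the libraries have no values of their own.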

Other observations

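The densest bin of 100 kb in the ridges, on scaffold 7 from 500001, held 12 loci, of which 11 were spliced. Their median introns were 100 to 804 bp, and their coverages ran between 2.6 and 1234, the highest for a locus of 12 exons at 505310-511609. The 2 loci at 500133-503285 and 502941-503285 ended at the same base. The next densest bins by number of identifiers held 11 loci, on scaffold 26 from 1900001, and 10 loci, on scaffold 84 from 800001. These counts include neighbours on the same strand whose coding segments overlap. On scaffold 26 they are 1927094-1939364 with 1927316-1927951, and a pair with the same ends, 1980818-1981753. On scaffold 84 they are 873514-874551 with 873630-874551. The order of the bins with such loci merged was not tested.

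Coding, intron and intergenic shares differed among ridges. Coding segments covered 4.49% of the ridge on scaffold 99 and 7.10% of that on scaffold 84. Introns covered 18.7% on scaffold 84 and 32.8% on scaffold 2. The scaffold 2 ridge, with 2 of the 5 longest introns, had the lowest share of sequence between loci, 61.8%, although its 40 loci per Mb lay in the lower part of the range.

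Members with the most neighbours, whose introns were shortest, had several transcripts in 38.1% of cases (32.1 to 44.4), against 45.0% (38.8 to 51.3) of the middle class and 45.1% (39.7 to 50.5) of those with the fewest. Their coverage was 75.4 (39.6 to 117), against 119 (64.1 to 155) in the middle class and 87.0 (45.4 to 122) in the class with the fewest, so it did not follow the number of neighbours.

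A run of 8 loci on the plus strand of scaffold 2, at 6567981-6691937, had coverages of 154 to 879 with a median of 326. Each of the other 5 runs of at least 8 loci held a member with a coverage below 7.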
